A study of Mus musculus with 4 samples.

Results

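Mouse embryonic stem (ES) cells moved for 12 h into a differentiating medium, with fibroblast growth factor 2 (FGF2) and a JAK inhibitor, were compared with cells moved into a self-renewing medium, with the MEK inhibitor PD0325901 and leukaemia inhibitory factor (LIF). The comparison rests on 1 Illumina bead array a side. It takes in 7931 of 16593 genes on the array, those with a detection p-value below 0.01 on at least 1 of the 2 arrays, of which 7048 were detected on both, 515 with FGF2 and the JAK inhibitor only and 368 with PD0325901 and LIF only. The cells were of the OG2 line, which carries a green fluorescent protein transgene under Pou5f1 control. All cells had been kept on gelatin, and the labels name no feeder cells. That medium was based on KSR and held 1 µM PD0325901, 3 µM of the GSK3 inhibitor CHIR99021 and 1000 U/ml LIF. They were then given PD0325901 with LIF, or 10 ng/ml FGF2 with 1 µM JAK inhibitor I. CHIR99021 is named for neither medium after the switch. FGF2 took the place of PD0325901 and the JAK inhibitor that of LIF, so giving an agent and withdrawing the other cannot be told apart. The series' other 2 arrays, from cells in FGF2 with LIF and in PD0325901 with the JAK inhibitor, changed only 1 of the 2 factors, and their values are given beside the comparison. Each of the single-factor differences printed here shares an array with it and is no independent repeat.

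LIF binds its receptor with gp130 and activates JAK kinases, which phosphorylate the transcription factor STAT3, and in mouse ES cells this holds up self-renewal through factors such as Klf4. FGF signalling runs through MEK to the kinase ERK, which switches on immediate early genes and its own feedback inhibitors and primes ES cells to leave the naive state. Cells that leave it pass through a formative state with the transcription factors Otx2 and Pou3f1, while Pou5f1 and Sox2 stay on.

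Media are written below with a slash, and 4 values in a row follow the order PD0325901/LIF, FGF2/LIF, PD0325901/JAK inhibitor and FGF2/JAK inhibitor. Values are background-corrected, quantile-normalized signals on the log2 scale, and a difference is FGF2 with the JAK inhibitor minus PD0325901 with LIF. The error given after a difference is the bead standard error (SE) of the 2 arrays combined. It covers the beads of an array and neither cultures nor labelling, and with 1 array a side no difference has a test. In RNA from whole cultures, fewer cells of a kind and less RNA per cell cannot be told apart. A gene was counted when it differed at least 2-fold. For a gene detected on 1 of the 2 arrays, a fold given as a least value allows only for the dim array's lowest detected signal. That value covers neither bead error nor the choice of processing. Such a gene passed the filter through 1 array, which largely fixes the sign of its difference. Of the 7931 genes, 60 were at least 2-fold higher (0.757%) and 87 at least 2-fold lower (1.1%), 147 in all (1.85%). Over all genes the median difference was 0.00 and the quartiles were −0.22 and 0.24, with an SD of 0.39 and a median bead SE of 0.14. Every one of the 147 lay beyond the 95% interval of its bead error, as did 39.6% of all genes. Other detected probes existed for 14 of the higher genes and had the same sign for 13 of them, the exception being Shroom3 (1.16 against −0.80). They existed for 14 of the lower genes and had the same sign for all 14, and in each direction 6 of these genes had every other probe at least 2-fold as well. The smallest counted differences were 1.01 (Snx24) and −1.0 (B2m), and just outside lay Meis1 (0.998) and the pluripotency factor Nanog (−0.987).

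The split between higher and lower depended on how the arrays were scaled. Without normalization between arrays 314 genes were higher and 40 lower, with the median gene at 0.34, and with median scaling 192 were higher and 53 lower, with the median gene at 0.23. Once the unnormalized values were centred on the median gene, a step chosen after the data were seen, 64 were higher and 99 lower. At 1.5-fold 474 genes were higher (5.98%) and 393 lower (4.96%). All 8 ES cell markers examined (Pou5f1, Sox2, Nanog, Zfp42, Esrrb, Sall4, Lin28a and Utf1) were detected on every array, and none of the 8 blood and endothelial markers examined was detected on any. The arrays had 10626 to 10927 detected probes and a median bead SE of 4.07% to 4.52% of the signal.

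**Figure D1:**
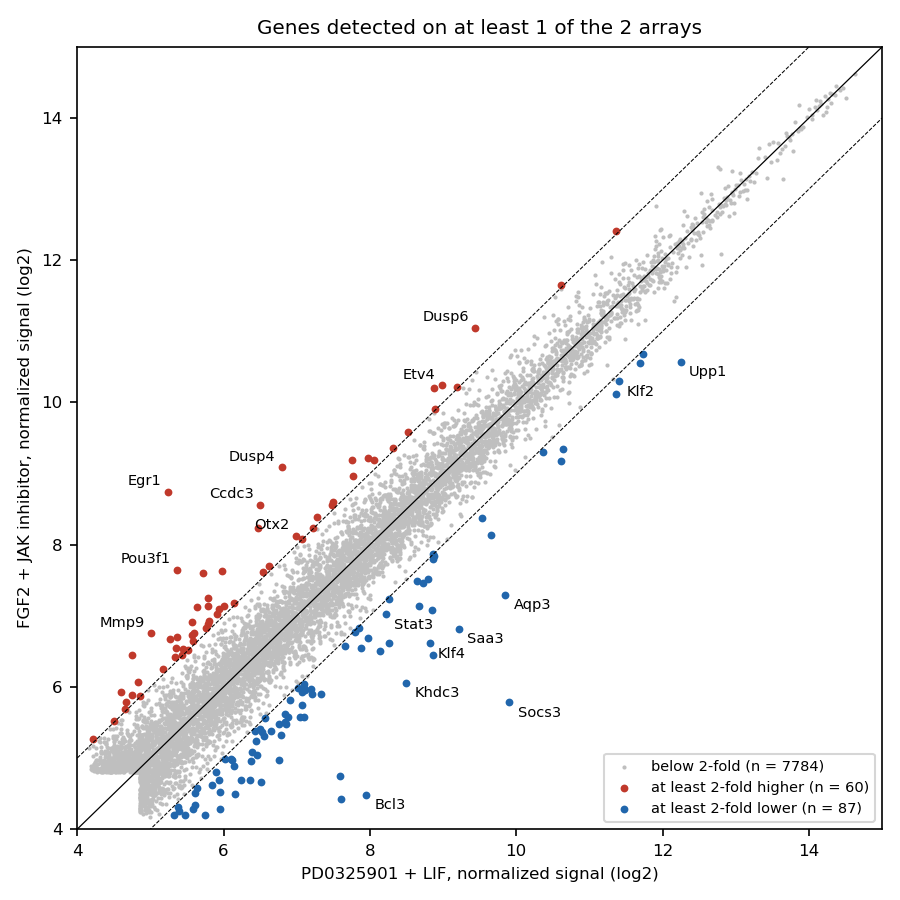
Normalized signal (log2) of each of the 7931 genes in PD0325901/LIF (horizontal) and in FGF2/JAK inhibitor (vertical); dashed lines mark 2-fold. Red points are the 60 higher genes, led by Egr1, and blue points the 87 lower genes, led by Socs3.

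Targets of LIF, JAK and STAT3 held the largest negative differences. Of the 14 analysed members of that list (18 genes), 7 were at least 2-fold lower, against 1.1% of all genes, and 0 were at least 2-fold higher. The list's median difference was −0.91 (−0.90 with genes detected on 1 array at their bound), against 0.00 over all genes, and it ran from −0.96 to −0.58 under the processing alternatives. Socs3 (probe ILMN_2618176), the feedback inhibitor that shuts off JAK signalling, had the largest difference in either direction. Its log2 signal was 9.90 in PD0325901/LIF, 10.05 in FGF2/LIF, 5.49 in PD0325901/JAK inhibitor and 5.79 in FGF2/JAK inhibitor. It was high on both LIF arrays and low on both inhibitor arrays with either PD0325901 or FGF2, and it was 17.3-fold lower in the comparison (−4.12 ± 0.12). Bcl3 (ILMN_2749717), which encodes a nuclear I kappa B family protein, stood at 7.95, 7.81, 4.72 and 4.48 in the same order. It was not detected on either inhibitor array and was at least 8.86-fold lower.

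The naive pluripotency gene Klf4 (ILMN_2999439), a target of STAT3, was low on both inhibitor arrays, though less so than Socs3. Its signal was 8.82 in PD0325901/LIF, 8.38 in FGF2/LIF, 7.39 in PD0325901/JAK inhibitor and 6.62 with both switched, the lowest of the 4 (−2.20 ± 0.10; other probes −1.90 and −1.33). Stat3 itself (ILMN_2698046) read 8.21, 8.69, 6.47 and 7.02. It was higher with FGF2 than with PD0325901 in either background, and its difference of −1.19 ± 0.15 was smaller in size than the −1.74 of the JAK inhibitor alone. Junb, an AP-1 gene, had the same order (7.22, 7.82, 5.32 and 6.54) and ended at −0.68 ± 0.16, short of 2-fold. The adhesion molecule gene Icam1 (−1.52 ± 0.10), the kinase gene Sgk1 (−1.06 ± 0.09) and the repressor gene Bcl6, undetected in FGF2/JAK inhibitor and at least 2.06-fold lower, completed the 7. Pim3 (−0.74), a kinase gene, and Cish (−0.76), of the SOCS family, were lower by less than 2-fold. Socs2 (0.19), Cebpb (0.17) and Irf1 (−0.07) lay near 0. The homeobox gene Gbx2 (9.40, 11.00, 8.84 and 10.32) was higher by 0.92 ± 0.09. Among 10 analysed genes of the LIF receptor and the JAK and STAT machinery itself, 0 passed 2-fold in either direction, with Lifr at 0.16, Il6st (gp130) at −0.22 and Jak3 lowest at −0.83 (other probe −0.37).

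STAT factors bind the letters TTCNNNGAA, which read alike on both strands. This motif was looked for in the windows of 250 bases before to 50 bases after the start sites that RefSeq lists for GRCm38.p6. It was found for 6 of the 13 analysed LIF, JAK and STAT3 targets that had a window (46.2%), namely Socs3, Icam1, Bcl6, Sgk1, Cish and Irf1, and not in those of Bcl3, Klf4 or Stat3. By comparison it was found for 7.99% of the 6492 analysed genes with a window and for 9.55% of all 27025 genes with one (8.30% of 32851 windows). Among genes past 2-fold it was found for 9 of the 61 lower ones with a window (14.8%) and for 4 of the 38 higher ones (10.5%). Genes with several windows, such as Sgk1 with 6, have more chances to hold it. Motifs of AP-1 (TGANTCA), of ETS factors (CCGGAAGT) and the CArG box were also looked for. In lower, higher and all analysed genes with a window, AP-1 was found for 9.84%, 7.89% and 6.05%. The ETS motif was found for 0%, 0% and 9.92%, and the CArG box for 3.28%, 0% and 1.69%. No motif, the STAT one included, was found for the 7 analysed ERK feedback and immediate early genes with a window. A match is a description of the letters and no evidence of binding. The windows of 3 lower genes follow, 5′ to 3′ on the strand of the gene, with the motif in capitals: Socs3 (chr11:117969317-117969616, minus strand, the motif's first base 154 bases before the start), Icam1 (chr9:21015690-21015989, plus strand, 42 bases before) and the downstream one of 2 Bcl6 windows (chr16:23981234-23981533, minus strand, 168, 122 and 88 bases before).
Socs3: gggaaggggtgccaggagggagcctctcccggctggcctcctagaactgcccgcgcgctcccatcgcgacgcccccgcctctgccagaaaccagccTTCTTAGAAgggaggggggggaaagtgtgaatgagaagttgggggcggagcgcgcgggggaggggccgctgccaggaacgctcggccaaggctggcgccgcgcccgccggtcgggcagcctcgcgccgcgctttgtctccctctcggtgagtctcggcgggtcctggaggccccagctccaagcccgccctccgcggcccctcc
Icam1: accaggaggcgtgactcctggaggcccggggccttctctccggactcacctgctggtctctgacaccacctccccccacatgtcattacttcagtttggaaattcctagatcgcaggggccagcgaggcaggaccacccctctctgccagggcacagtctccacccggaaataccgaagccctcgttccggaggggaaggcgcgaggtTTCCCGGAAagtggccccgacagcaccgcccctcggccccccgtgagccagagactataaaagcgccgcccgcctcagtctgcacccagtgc
Bcl6: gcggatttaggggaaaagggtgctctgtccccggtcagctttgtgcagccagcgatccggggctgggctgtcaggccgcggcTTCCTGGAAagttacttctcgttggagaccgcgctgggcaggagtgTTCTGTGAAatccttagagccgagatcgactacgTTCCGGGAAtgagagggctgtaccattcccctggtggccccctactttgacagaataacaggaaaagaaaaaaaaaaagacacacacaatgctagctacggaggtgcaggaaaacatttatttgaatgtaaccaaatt

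Feedback inhibitors and immediate early targets of ERK were the group most often higher. Of the 13 analysed members of that list (20 genes), 6 were at least 2-fold higher, against 0.757% of all genes, and 0 were at least 2-fold lower. The median was 0.78, and 0.42 to 1.29 under the alternatives. Egr1 (ILMN_2662926), an immediate early transcription factor, read 5.24 in PD0325901/LIF, 8.60 in FGF2/LIF, 4.57 and not detected in PD0325901/JAK inhibitor, and 8.75 in FGF2/JAK inhibitor. It was high on both FGF2 arrays alone and gave the largest positive difference, 11.4-fold (3.51 ± 0.18). Dusp4 (ILMN_2689731) and Dusp6 (ILMN_2925711) encode phosphatases that switch off ERK. Dusp6 showed the same pattern, with 9.44, 11.02, 9.62 and 11.05 (1.61 ± 0.08; other probes 1.29 and 1.58). Dusp4, with 6.79, 8.37, 7.18 and 9.09, was highest where both factors were switched (2.30 ± 0.12; other probes 1.41 and 1.71).

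The ETS factor gene Etv4 (8.98, 10.41, 8.75 and 10.24) was higher by 1.27 ± 0.08, and Phlda1 by 1.25 ± 0.09. Spry4, an inhibitor of receptor signalling to ERK, read 5.79, 7.68, 6.27 and 7.13, so that it was higher with FGF2 on both arrays but less so beside the JAK inhibitor (1.34 ± 0.16). Spred1 (0.78), Myc (0.74) and Etv5 (0.42) were higher by less than 2-fold. Ier3 stood at −0.39 and Fos at −0.63, the latter not detected in FGF2/JAK inhibitor. Spry1, Spry2, Egr2, Fosl1, Ier2 and Trib1 were detected on neither array. Of 6 analysed genes among FGF ligands, receptors and the ERK cascade, 0 passed 2-fold, with Fgf4 at −0.35, Fgfr1 at 0.23 and the adaptor gene Shc1 at 0.68 (other probe 0.25).

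Several of the largest differences were present in part on each single-factor array. Aqp3 (ILMN_2991272), which encodes a water and glycerol channel, had 9.85 in PD0325901/LIF, 8.41 in FGF2/LIF, 8.70 in PD0325901/JAK inhibitor and 7.30 with both switched (−2.55 ± 0.14). Among the negative differences of genes detected on both arrays it was next to that of Socs3, and it differed by −1.44 and −1.15 on the single-factor arrays. AA467197 (8.85, 7.48, 7.95 and 7.08; −1.77 ± 0.11) and the small heat shock protein gene Hspb8 (8.14, 7.56, 7.10 and 6.50; −1.64 ± 0.12) were likewise lowest with both switched. In the other direction Pou3f1 (ILMN_1233172), a POU factor of the epiblast, read 5.36, 7.06, 6.52 and 7.65, and was 4.89-fold higher (2.29 ± 0.19). It was lowest in PD0325901/LIF and highest with both switched.

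Otx2 (ILMN_2691752), a homeobox gene of the epiblast, had another pattern. It read 6.98, 6.79 and 7.22 with no factor or a single factor switched and 8.13 with both (1.14 ± 0.12). The transporter gene Slc46a3 (4.59, 4.73, 4.90 and 5.92), not detected in PD0325901/LIF, was at least 2.10-fold higher and was also highest with both. Single-factor differences of opposite sign were found in many genes, Stat3, Junb, Gbx2 and Bmp4 among them. Id1, a BMP target, read 6.46, 8.85, 5.26 and 6.82, and Lama1, a laminin chain gene, 7.33, 8.34, 5.79 and 5.90. Of the genes analysed these 2 alone passed 2-fold in opposite directions, higher in FGF2/LIF and lower in PD0325901/JAK inhibitor. With both switched, Id1 stood near its PD0325901/LIF level (0.36 ± 0.15) and Lama1 well below it (−1.43 ± 0.12).

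**Figure D2:**
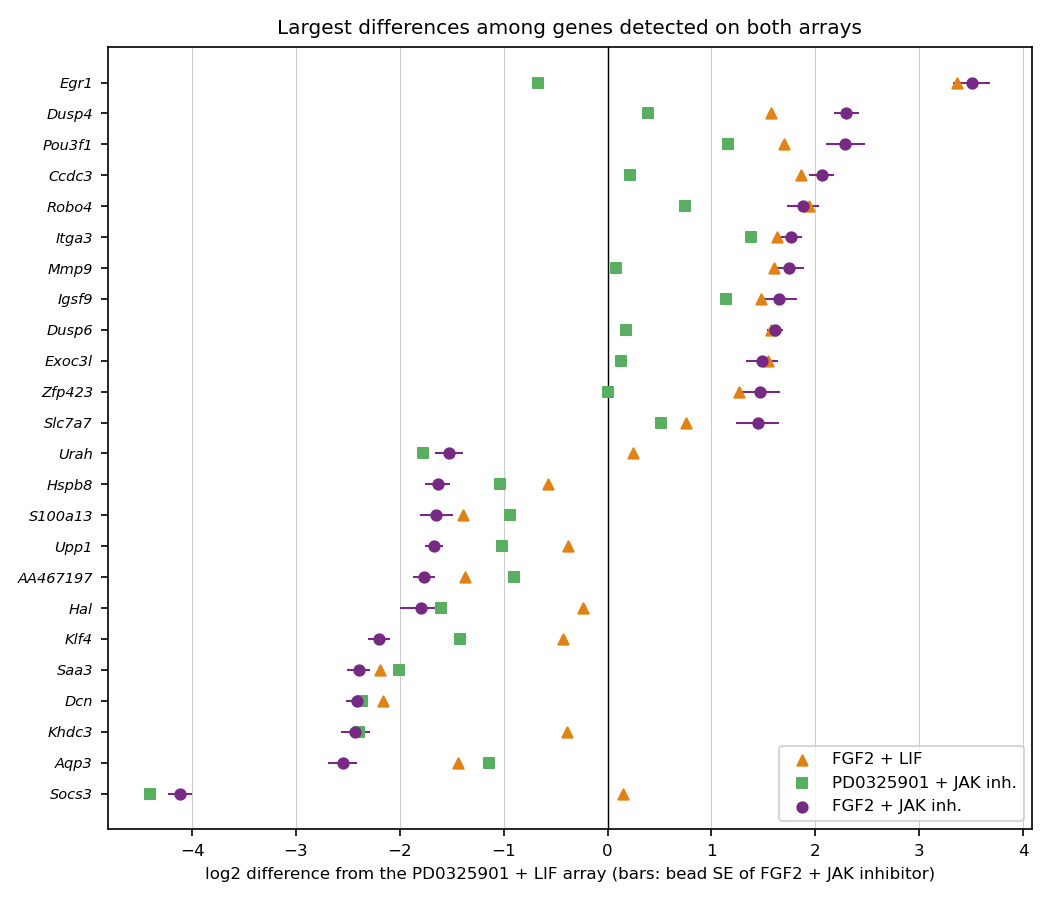
Log2 difference from the PD0325901/LIF array for the 12 largest positive and 12 largest negative differences among genes detected on both arrays: FGF2 with LIF (triangles), PD0325901 with the JAK inhibitor (squares) and FGF2 with the JAK inhibitor (circles, bars are bead SE). Circles lie with triangles for Dusp6 and with squares for Socs3, and beyond both for Aqp3 and Pou3f1.

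Naive pluripotency genes were mostly lower, and the general ones mostly slightly higher. Of 15 analysed naive members (17 genes), 12 had a negative difference, where 49.8% of all genes had a positive one. At least 2-fold lower were 4, against 1.1% of all genes, and 0 were at least 2-fold higher. The median was −0.68 (−0.40 with genes detected on 1 array at their bound). Spic and Prdm14 passed the detection filter through PD0325901/LIF alone, which largely set their sign. The Krüppel-like factor gene Klf2 (11.40, 10.86, 11.20 and 10.30) differed by −1.10 ± 0.08 and Dppa3, a maternal factor gene of naive cells, by −1.27 ± 0.14. Crxos differed by −1.37 ± 0.20. Spic, counted among the 4 but not detected in FGF2/JAK inhibitor, was at least 1.72-fold lower, a bound short of 2-fold. Nanog (ILMN_2706623) read 11.32, 10.71, 10.90 and 10.34. It was lowest with both switched and just missed 2-fold (−0.99 ± 0.08). The T-box gene Tbx3 (9.05, 9.26, 8.36 and 8.07) was at −0.97 ± 0.11, with other probes at −0.94 and −0.62. The nuclear receptor gene Esrrb differed by −0.33 ± 0.08 only, and Klf5 (0.14), Zfp42 (0.25), Dppa5a (−0.03) and Pecam1 (0.45) were not lower by 1.5-fold or more.

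Pou5f1, the defining factor of pluripotent cells, read 12.55, 12.62, 12.62 and 12.60, a difference of 0.05 ± 0.10. Sox2 read 9.15, 9.10, 9.09 and 9.27 (0.13 ± 0.12; other probe −0.44). Neither differed much between any of the 4 arrays. Of the 11 analysed general pluripotency genes 10 had a positive difference, where 49.8% of all genes had one, and the median was 0.31. The bead intervals of Pou5f1, Sox2 and Zfp281 (0.15) included 0, and Dppa4 (0.46) had other probes at −0.28 and 0.11. Lin28a (0.77; other probe −0.13), Utf1 (0.69) and Sall1 (0.64; other probe 0.39) were highest. The gene with a negative difference was Tdgf1, which encodes Cripto, a co-receptor for Nodal (6.11, 6.20, 4.93 and 4.99), low on both JAK inhibitor arrays (−1.12 ± 0.18).

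The formative and primed epiblast list had a median of 0.44 over 11 analysed members (17 genes), or 0.29 with genes detected on 1 array at their bound. Pou3f1 and Otx2 were at least 2-fold higher and 0 members at least 2-fold lower. The de novo DNA methyltransferase gene Dnmt3b (11.29, 12.07, 11.59 and 12.05) was higher by 0.75 ± 0.06 (other probe 0.39) and its cofactor gene Dnmt3l (11.91, 12.62, 12.55 and 12.76) by 0.85 ± 0.07. All 5 analysed enzymes and cofactors of DNA methylation and demethylation (9 genes) were higher, by 0.39 to 0.85, where 49.8% of all genes were, though 0 reached 2-fold. Besides those they were Dnmt1 (0.65), Tdg (0.53) and Uhrf1 (0.39), and the median of 0.65 was positive under each processing alternative run (0.53 to 0.99). Tet1 and Tet2 were not on the array and Dnmt3a and Tet3 were detected on neither of the 2 arrays. Of demethylation only Tdg was therefore analysed. Fgf5, a marker of the later epiblast, and Sox3 and Lef1 were detected on neither array.

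Few markers of the primitive streak or of neural cells were detected. Of the 12 primitive streak and mesendoderm genes 3 were analysed, all detected in PD0325901/LIF and not in FGF2/JAK inhibitor: Gsc (at least 1.93-fold lower), Snai1 (at least 1.53-fold) and Evx1 (at least 1.05-fold). All 3 passed the detection filter through PD0325901/LIF alone, so their shared direction was set by the filter and is no result about the list. The bead interval of Evx1, from −0.72 to 0.15, included 0. Of the 10 neuroectoderm genes only Nes was analysed (0.35), and Sox1 and Pax6 were not detected. Cdx2 was not detected, and among 6 analysed trophectoderm genes the AP-2 factor gene Tfap2c (10.61, 9.94, 9.72 and 9.18) was the 1 past 2-fold, lower by far more than its bead error (−1.43 ± 0.08; other probes −1.54 and −1.29). Of 9 analysed primitive endoderm genes Lama1 was the 1 past 2-fold. Gata6, a regulator of that lineage, stood at 0.15 ± 0.16. Of 3 analysed Wnt and beta-catenin targets 0 passed 2-fold, with Axin2 at 0.75.

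Nodal and BMP genes were mixed. Lefty1 (ILMN_1246073), a secreted antagonist of Nodal, read 8.72, 6.88, 8.75 and 7.46, low on both FGF2 arrays (−1.27 ± 0.10), while Nodal itself (0.06 ± 0.15) did not differ beyond bead error. Inhba, a subunit gene of activin, read 5.44, 6.64, 4.55 and 6.45 and was just past 2-fold higher (1.01 ± 0.19). Bmp4, a secreted ligand, had 7.48, 9.29, 6.97 and 8.56 (1.08 ± 0.13), high on both FGF2 arrays. Of 7 analysed Nodal and TGF-beta genes 1 was at least 2-fold higher and 2 lower, and of 5 analysed BMP genes 1 was higher and 0 lower.

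Some lower genes, among them matrix and acute-phase genes, were high on the PD0325901/LIF array and lower on the other 3. The proteoglycan gene Dcn (ILMN_2747959) read 8.86 there against 6.70, 6.50 and 6.45 (−2.41 ± 0.11; other probe −1.70). Saa3, an acute-phase gene, read 9.22 against 7.02, 7.21 and 6.82 (−2.40 ± 0.11). The chemokine gene Ccl7 read 7.10 against 5.69, 5.89 and 5.58 (−1.53 ± 0.17). Each was high on 1 array and close to level on the rest. All 5 analysed members of the acute-phase and chemokine list (8 genes) had a negative difference, where 49.8% of all genes had a positive one. At least 2-fold lower were 3 of them, against 1.1% of all genes. The median was −1.53 (−1.16 with genes detected on 1 array at their bound). Ccl2 and Ccl8 were detected in PD0325901/LIF alone, so the detection filter largely set their sign. Ccl8 was at least 2.23-fold lower. The proteoglycan gene Lum (6.51, 4.56, 5.35 and 4.66) was at least 3.28-fold lower and was also detected in PD0325901/JAK inhibitor. Other matrix genes did not share this form. The matricellular protein gene Ccn5 (6.36, 4.44, 6.05 and 4.69) was detected on both PD0325901 arrays and neither FGF2 array and was at least 2.95-fold lower. The probe standing for the matrix protease gene Mmp3 (6.24, 5.69, 4.31 and 4.69) was detected on both LIF arrays and neither JAK inhibitor array. By that probe Mmp3 was at least 2.72-fold lower. Its other detected probes differed by −1.39, detected on both compared arrays, and by −0.59, short of 2-fold. Of the matrix genes, for which no list was set, these were picked after their values were seen because they were high in PD0325901/LIF alone: Thbs2 (6.83, 4.83, 5.09 and 5.50), Col6a1 (6.14, 4.85, 4.67 and 4.89), Igfbp7 (8.64, 7.59, 7.42 and 7.49) and Timp2 (7.10, 6.11, 6.34 and 6.05). Matrix genes were not lower as a class. Of those on the primitive endoderm list, Lama1 (−1.43) and Sparc (−0.15) had negative differences. Positive ones were found for Lamc1 (0.09), Col4a1 (0.25) and Col4a2 (0.55), and Col18a1 was just short of 2-fold higher (0.989).

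Dcn and Lum also belong to the markers of fibroblasts and feeder cells. Of the 11 such markers examined, 7 were detected in PD0325901/LIF, 6 in FGF2/LIF, 7 in PD0325901/JAK inhibitor and 6 in FGF2/JAK inhibitor. Their summed normalized signal was 4879, 3791, 4111 and 2899 in that order, with Acta2 and Vim the brightest members. Col1a2, Col3a1, Postn and S100a4 were detected on no array, while Dcn, Thy1, Acta2, Vim, Twist1 and Col1a1 were detected on every array. Col1a1 read 6.70, 6.15, 6.54 and 6.69 (−0.01 ± 0.18). Of the 7 analysed markers 2 were at least 2-fold lower (Dcn and Lum) and 0 at least 2-fold higher. A negative difference was found for 6, Col1a1 near 0 included, and the median was −0.71. Lum passed the detection filter through PD0325901/LIF alone, which largely set its sign. The part of other cells in these differences was not tested. Taking out the fibroblast list and the acute-phase list left 82 genes at least 2-fold lower, since it removes only their own members. Matrix genes such as Ccn5 and Mmp3 are on neither list, so this count does not bear on the part of other cells.

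Lower genes of other kinds included Khdc3, which encodes a KH-domain protein of oocytes and ES cells, at 8.49, 8.10, 6.10 and 6.06 (−2.43 ± 0.14). Ly6g6e, of the Ly6 family, was not detected on either JAK inhibitor array and was at least 6.98-fold lower. Spink1, a serine protease inhibitor gene, was undetected in FGF2/JAK inhibitor and was at least 6.90-fold lower. All these were high on both LIF arrays. The same pattern was seen in Hal, histidine ammonia-lyase (6.76, 6.53, 5.15 and 4.97; −1.79 ± 0.21), Urah of urate breakdown (8.66, 8.91, 6.89 and 7.13; −1.53 ± 0.13) and Upp1, uridine phosphorylase (12.25, 11.86, 11.23 and 10.57; −1.67 ± 0.09; other probes −1.83 and −1.61), the last lowest with both switched. The calcium-binding protein gene S100a13 differed by −1.65 ± 0.16. B2m, the light chain of MHC class I, was at −1.0 ± 0.14 (other probe −0.92), and was the 1 of 6 analysed interferon and MHC class I genes past 2-fold. In that list 5 genes had a negative difference, from B2m through Ifitm1 (−0.82) and Ifitm3 (−0.74) to Irf1 at −0.07.

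Higher genes named outside these lists took several forms, and some were high on both FGF2 arrays. Ccdc3 read 6.50, 8.37, 6.72 and 8.56 (2.06 ± 0.12), the matrix metalloproteinase gene Mmp9 5.01, 6.62, 5.10 and 6.76 (1.74 ± 0.15) and the zinc finger gene Zfp423 5.79, 7.06, 5.79 and 7.26 (1.47 ± 0.19). Exoc3l (1.48 ± 0.15) and Robo4, a guidance receptor gene (5.72, 7.66, 6.47 and 7.60; 1.88 ± 0.16), were also high on both FGF2 arrays. The prodynorphin gene Pdyn was detected on the FGF2 arrays alone and was at least 3.01-fold higher. A different form was shown by the integrin gene Itga3 (6.47, 8.11, 7.86 and 8.24; 1.77 ± 0.11) and by Igsf9 (5.97, 7.45, 7.12 and 7.63; 1.65 ± 0.17). These were low in PD0325901/LIF and close to level on the other 3 arrays. Dok2, Ttn, Cachd1 and Acap1 were detected on those 3 arrays and not in PD0325901/LIF, and were at least 2.32-fold, 2.06-fold, 2.03-fold and 1.90-fold higher. These least values leave out bead error and processing. For Cachd1 the bead interval of the log2 difference ran from 0.61 to 1.43, and the difference was 0.40 without background correction.

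Amino acid genes were a smaller higher group. Of 13 analysed members of the amino acid response and unfolded protein list 12 had a positive difference, where 49.8% of all genes had one. At least 2-fold higher were 2, against 0.757% of all genes, and 0 were at least 2-fold lower. The median was 0.36. Slc3a2 and Atf3 passed the detection filter through FGF2/JAK inhibitor and not PD0325901/LIF, which largely set their sign. The glycine transporter gene Slc6a9 (5.36, 5.87, 6.81 and 6.70; 1.34 ± 0.18) and Chac1, whose product degrades glutathione (8.89, 8.86, 9.88 and 9.90; 1.02 ± 0.12), were high on both JAK inhibitor arrays. Psat1 and Phgdh of serine synthesis stood at 0.71 and 0.53. Asns (0.29, with other probes from −0.18 to 0.21) and Atf4 (0.19) differed less. The bead intervals of Trib3 (0.36), Slc3a2 (0.23), Atf3 (0.03) and Ddit3 (−0.23, the negative member) included 0. The amino acid transporter gene Slc7a7 was higher by 1.44 ± 0.21 (other probe 2.01). The kinase gene Pdk1, which restrains entry of pyruvate into mitochondria, was higher by 1.14 ± 0.11, the 1 gene past 2-fold of 14 analysed for glycolysis and hypoxia.

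**Figure D3:**
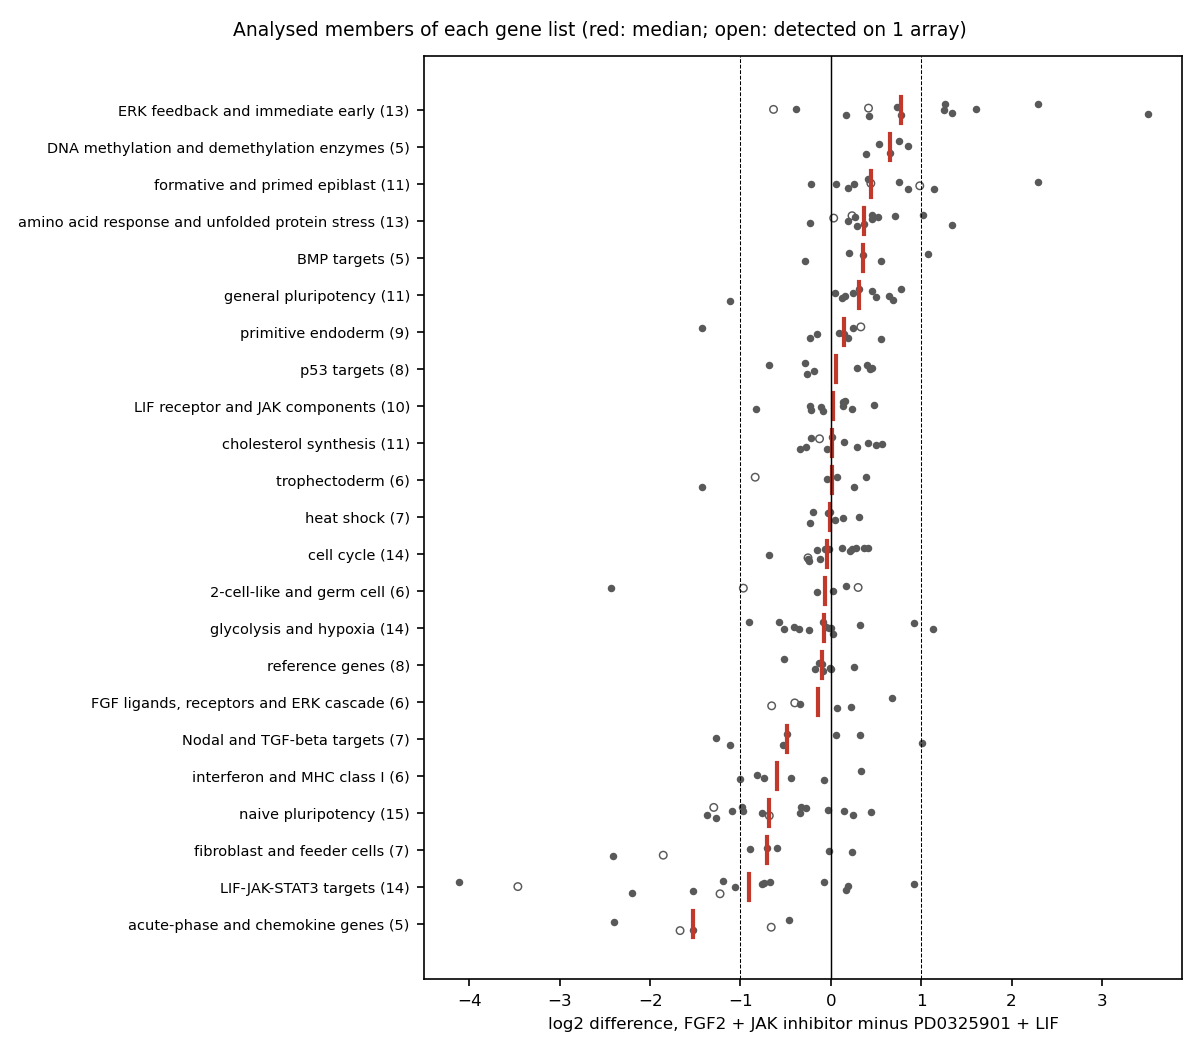
Log2 difference of every analysed member of the gene lists with at least 5 analysed members; red bars are medians, open points genes detected on 1 of the 2 arrays, dashed lines 2-fold. Medians run from −1.53 for acute-phase and chemokine genes to 0.78 for ERK feedback and immediate early genes.

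Lists of housekeeping programmes had medians near 0. Medians were −0.04 for 14 analysed cell cycle genes, 0.01 for 11 of cholesterol synthesis, −0.01 for 7 heat shock genes, 0.05 for 8 p53 targets, −0.07 for 14 of glycolysis and hypoxia and −0.09 for 8 reference genes. The cell cycle, heat shock, glycolysis and reference medians turned positive without normalization between arrays and with median scaling, where all genes shifted up. In the cell cycle, cholesterol, heat shock, p53 and reference lists 0 genes passed 2-fold. The cell cycle inhibitor gene Cdkn1a was lowest of its lists at −0.68 (other probes −1.08 and −0.74). Gapdh stood at 0.00 ± 0.04 and Actb at 0.26 ± 0.08 (other probes from −0.71 to 0.07). Of 6 analysed 2-cell-like and germ cell genes, Khdc3 was the 1 past 2-fold, with Zscan4c at 0.02.

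**Figure D4:**
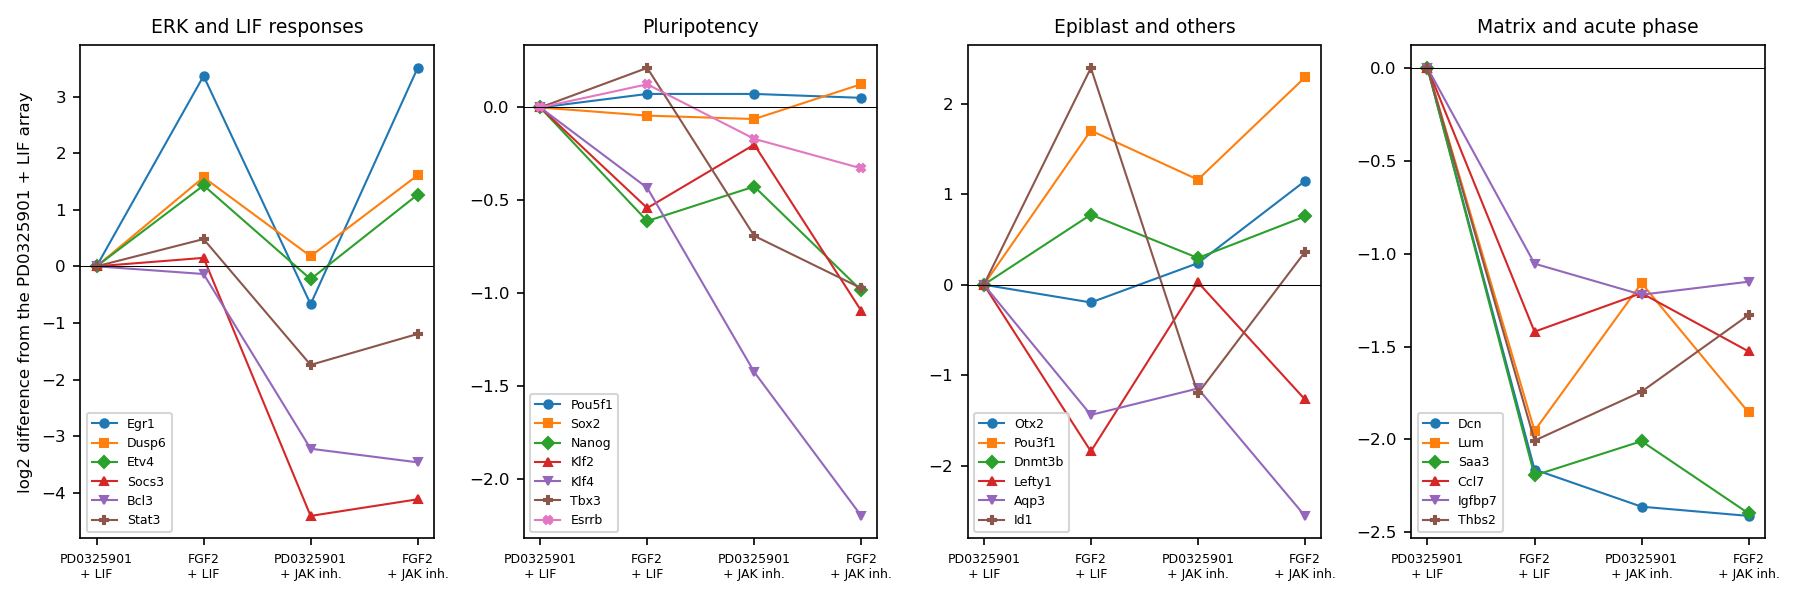
Log2 difference from the PD0325901/LIF array on each of the 4 arrays for chosen genes, with lines joining the points of a gene and no error bars. Egr1 is high with FGF2, Socs3 and Bcl3 are low with the JAK inhibitor, Klf4, Nanog and Aqp3 are lowest with both switched, and Dcn and Saa3 are high on the PD0325901/LIF array alone.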

How the data were processed

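Total RNA was amplified and labelled with Cy-3 and hybridised to 1 bead array per medium, per the labels' protocols. BeadStudio was used, per the submitters' processing notes; no version or settings appear in the sources used here. The deposited tables give for each of 25697 probes a signal and a bead standard error, both intensity values, and a detection p-value, per the file headers. The deposited signals showed no sign of background subtraction or normalization (lowest values 64.4 to 71.2, medians 82.0 to 92.8). The authors' value table of whole-number intensity values, with equal medians, was an alternative.

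Signals were corrected with nec of limma 3.58.1 in R 4.3.3 (detection p-values, offset 16) and quantile-normalized over the 4 arrays. Probes were named by the probe annotation, with symbols updated through RefSeq (GRCm38.p6): 23978 had 1 symbol, 0 several and 1719 none. The detected probe with the highest mean stood for its gene. The bead SE of a log2 difference was the deposited bead standard error over the corrected signal, combined over both arrays. For a gene detected on 1 of the 2 arrays, the fold is at least that against the dim array's lowest detected signal, or its own value where higher. With 1 array a side no test was run; precision is limited by the number of arrays. The steps were tested on simulated data.

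The comparison, members and lists were chosen with earlier results of these data known. Named genes were the 12 largest positive and 12 largest negative differences detected on both arrays, the 6 largest bounded folds in each direction, list members past 2-fold and a set of 26 genes (22 analysed), 70 genes in all; other names were chosen after their values were seen. A list member without a probe is not analysed here.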

Additional observations from a re-analysis of the deposited data

Results flagged for a closer look

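Of 682 detected probes without a gene symbol, which the comparison of genes leaves out, 2 were at least 2-fold higher in FGF2/JAK inhibitor than in PD0325901/LIF and 7 were at least 2-fold lower. Over the 7931 genes 0.757% were higher and 1.1% lower, so these counts do not set the unnamed probes apart. Probe ILMN_1258086 was higher by 1.11 ± 0.09 (log2, bead SE), reading 8.22 in PD0325901/LIF, 9.18 in FGF2/LIF, 9.02 in PD0325901/JAK inhibitor and 9.33 with both switched. Probe ILMN_2918907 was higher by 1.04 ± 0.21, reading 4.90, 5.36, 4.98 and 5.95 in the same order. Its PD0325901/LIF value lay near that array's lowest detected signal (4.85). The signal of these 2 probes without a gene name, above the level of the self-renewing medium, is why they are listed. Only higher probes were flagged. Of the 7 lower ones the largest difference was that of ILMN_2879102 (−1.62 ± 0.10), which read 10.35, 9.89, 9.27 and 8.73.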

How the results depend on the processing

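The main counts were 147 genes at least 2-fold, 60 higher and 87 lower. They became 39 (15 and 24) without background correction, 53 (19 and 34) with an offset of 50, 354 (314 and 40) without normalization between arrays, 245 (192 and 53) with median scaling, 553 (261 and 292) with the authors' value table and 867 (474 and 393) at 1.5-fold. They stayed within 1.5 times of the main counts with quantile normalization over the 2 arrays, detection on both arrays (51 and 67), no detection filter, the mean over detected probes, a bead error criterion, and, added after seeing the data, bounded folds (56 and 78), centring on the median gene and leaving out the fibroblast and acute-phase lists. Leaving out those lists removes only their own members, so it could change the counts little. The bead error criterion could not change them, as each of the 147 genes lay beyond it already. The larger offset and the missing background correction compress differences of dim genes by construction. The cause of the other shifts was not tested. All named genes past 2-fold that had a value kept their direction in each of 9 alternatives (56 of 61 had one with the authors' value table, 46 with detection on both arrays), and between 31 and 61 stayed past 2-fold. List medians changed sign in at least 1 alternative for BMP targets (−0.04 without a detection filter), trophectoderm (−0.11 with the mean over probes) and p53 targets, besides lists near 0. No paired analysis was possible because each medium has 1 array and the labels carry no replicate numbers. Genes near the detection limit have uncertain sizes, and no array was repeated.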
